A study of Mus musculus with 10 samples.

Results

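Replication-dependent histone genes are gathered in a few clusters of the mouse genome, and open chromatin was described here in the Hist1 cluster on chromosome 13 and the Hist2 cluster on chromosome 3. The clusters were taken as the mm9 intervals 21800001 to 23720000 (1.92 Mb) and 96030001 to 96085000 (55 kb), and every site of the deposited lists that overlapped either interval was included. This gave 1466 sites of 1816946 (0.0807%), with 1366 in Hist1 and 100 in Hist2. ESC had 341 of them, EpiSC 423, NSC 396 and MEF 306. Positions in Hist1 are on chromosome 13 and those in Hist2 on chromosome 3, in mm9, unless another build is named. The intervals were fixed by position, without use of the scores or of sharing.

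Open chromatin had been measured by FAIRE-seq, in which crosslinked chromatin is sheared and the DNA that stays in the aqueous phase of a phenol extraction, poor in nucleosomes, is sequenced. ESC were embryonic stem cells of the E14 line, kept in N2/B27 medium with a MEK inhibitor (1 uM), a GSK3 inhibitor (3 uM) and LIF (1000 U/ml). EpiSC were epiblast stem cells of the E3 line, expanded on MEF feeders in conditioned medium with FGF2 (5 ng/ml) and moved off the feeders 2 days before crosslinking. NSC, neural progenitors obtained from ES cells, were kept in N2B27 medium with FGF2 and EGF (10 ng/ml each), and MEF were fibroblasts of E16.5 mouse embryos, grown with 10% FBS. Each cell type had 2 samples and 1 list of sites, so replicate spread is unknown and cell types could be compared only by description. ESC and EpiSC each stand for a single line. A source label of the MEF samples names NSC chromatin, whereas title and cell type name fibroblasts. Without an mm9 gene annotation, marker genes could not serve to check the labelled cell types.

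These genes encode the core histones H2A, H2B, H3 and H4 and the linker histone H1, which package newly copied DNA. They are short, lack introns, are transcribed mainly in S phase, and their mRNAs end in a stem-loop rather than a poly(A) tail. Their promoters are gathered in nuclear bodies that hold the coactivator NPAT. The Hist1 cluster is interrupted by genes of vomeronasal receptors (Vmn1r) that detect pheromones in sensory neurons of the vomeronasal organ.

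The order of genes was taken from RefSeq on build GRCm38.p6, for names and neighbours only, and none of its positions was carried over to mm9. On chromosome 13, from H2bc13 to H1f1, the annotation lists 54 histone genes (52 of them protein-coding), 77 tRNA genes and 75 Vmn1r genes, 39 of which are pseudogenes. A further 39 genes of other kinds, 9 of them protein-coding and 14 pseudogenes, lie in this stretch and were left out of the order that follows. With these left out, the run starts with 19 histone genes (H2bc13 to H4bc24). They are followed by 31 tRNA genes, 5 histone genes (H2ac12 to H2bc11) and a single tRNA gene. Then come the 75 Vmn1r genes, 45 tRNA genes, and 30 histone genes (H4c8 to H1f1). On chromosome 3, 10 histone genes (H2ac21 to H2bc18) lie together without any tRNA or Vmn1r gene between them, and 1 gene of another kind was left out there. Which of these genes lie inside the mm9 limits was not determined, so no site below is assigned to a gene. Many histone genes are near-identical copies, as are tRNA genes, and the placing of reads that match several copies is not described, so site positions among such copies are uncertain.

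The promoters of these genes are shown to give an idea of the regulatory sequence the clusters are built from. RefSeq promoters were matched for 57 of the 64 histone genes (58 promoters) and for 33 of the 75 Vmn1r genes. In the 250 bases before the start, read on both strands, CCAAT was found in 82.8% of the histone promoters, against 33.3% of the Vmn1r promoters and 33.9% of all 32851 promoters in the table. CCAAT is the motif of the factor NF-Y. TATAAA, the core of the TATA box, was found in 44.8%, 18.2% and 12.4%, and ATTTGCAT, the octamer motif of POU factors, in 11 of 58 histone promoters, 9.09% of Vmn1r promoters and 1.60% of all. The median number of CpG dinucleotides was 10 in histone promoters, 1 in Vmn1r promoters and 6 in all promoters. The 120 bases before the start follow for the first matched gene, by symbol, of each of the 5 histone classes and of the Vmn1r genes not marked as pseudogenes, the last added for contrast after the data were seen. They are all from chromosome 13 of GRCm38.p6, H4c1 on the minus strand and the others on the plus strand, with these motifs on either strand in capitals.
H1f1: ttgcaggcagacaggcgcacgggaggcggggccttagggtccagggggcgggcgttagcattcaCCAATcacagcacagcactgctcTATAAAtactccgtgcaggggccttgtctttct
H2ac10: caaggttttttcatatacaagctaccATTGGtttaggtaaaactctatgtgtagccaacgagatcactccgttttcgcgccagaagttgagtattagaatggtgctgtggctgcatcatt
H2bc11: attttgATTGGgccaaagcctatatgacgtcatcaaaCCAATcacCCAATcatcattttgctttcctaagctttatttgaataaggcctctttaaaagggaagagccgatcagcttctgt
H3c10: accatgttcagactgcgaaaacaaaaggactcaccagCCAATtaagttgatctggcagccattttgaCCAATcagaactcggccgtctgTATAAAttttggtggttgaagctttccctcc
H4c1: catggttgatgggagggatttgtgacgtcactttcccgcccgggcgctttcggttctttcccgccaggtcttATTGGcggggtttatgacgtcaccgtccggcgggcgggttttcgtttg
Vmn1r188: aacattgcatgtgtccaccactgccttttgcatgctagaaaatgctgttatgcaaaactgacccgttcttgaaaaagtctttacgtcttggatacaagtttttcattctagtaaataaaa
Of these 6 stretches, H2bc11 holds 3 copies of CCAAT, H3c10 holds 2, H1f1, H2ac10 and H4c1 hold 1 each, and Vmn1r188 holds none. H1f1 and H3c10 also hold TATAAA. A match describes the letters in this window and does not show binding.

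Over the whole Hist1 interval, site density ran from 0.829 times (MEF) to 1.28 times (EpiSC) that of the autosomes, an average over dense ends and a long sparse stretch. ESC had 319 sites in Hist1, or 166 per Mb, which is 0.914 times the autosomal density of its own list (95% interval 0.817 to 1.02). EpiSC had 393 sites, 1.28 times its autosomal density (1.15 to 1.41). NSC had 374 sites, 0.853 times (0.768 to 0.943), and MEF 280 sites, 0.829 times (0.735 to 0.932). The intervals are exact Poisson intervals and cover counting error only, neighbouring sites not being independent. With all sites, the interval of EpiSC lay above its autosomal density and those of NSC and MEF below theirs. With the 50% of each list that scored highest, the ratio was 1.63 in EpiSC (1.43 to 1.84) and 1.24 in ESC (1.08 to 1.42), both above 1, and the intervals of NSC (1.07) and MEF (0.955) included 1.

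Counted in 20-kb bins, the 1.92 Mb fell into open ends and a sparse middle. The limits were set by the longest run of bins without a region found in all 4 lists, so the absence of such regions from the middle part is what chose it, and densities of the parts are given as a description. The first part ran from 21800001 to 22160000 (18 bins), the middle part from 22160001 to 23300000 (57 bins, 1.14 Mb) and the last part from 23300001 to 23720000 (21 bins). In the first part the median bin held 8.5 ESC sites, 7.5 EpiSC sites, 9.5 NSC sites and 6 MEF sites. In the last part the medians were 7, 7, 8 and 5, and in the middle part 0, 1, 0 and 0. Across all 120739 autosomal bins the medians were 2, 2, 4 and 3. Of the 96 bins, 41 (42.7%) held a site of every list, beside 55.6% of autosomal bins, with 17 of 18 in the first part, 7 of 57 in the middle and 17 of 21 in the last. With the 50% of each list that scored highest the shares were near each other, at 31.3% in Hist1 (30 of 96 bins) and 29.7% over the autosomes. No interval was computed for this share. No bin of either open end was empty in all lists, whereas 12 of the 57 bins of the middle part were, or 21.1%, beside 4.25% of autosomal bins.

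**Figure D1:**
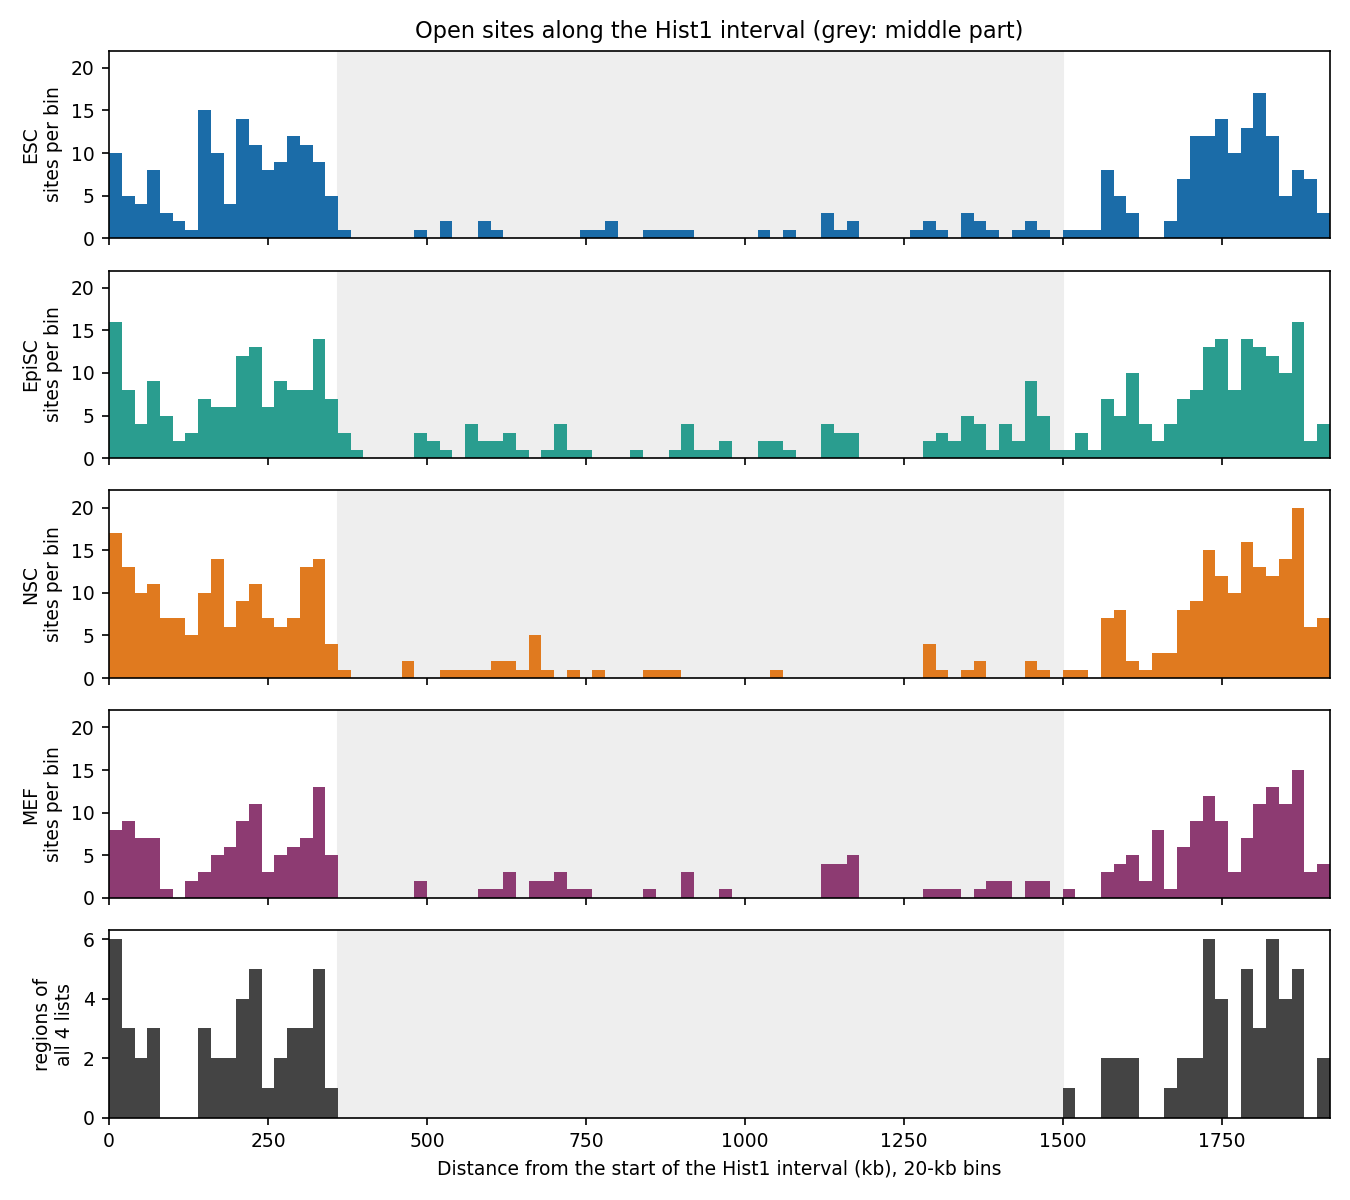
Sites per 20-kb bin (by midpoint) along the Hist1 interval in each of the 4 lists, and regions found in all 4 lists (bottom); the x axis is the distance in kb from the start of the interval. The middle part, in grey, holds at most 9 sites of any list in a bin and, by the way it was chosen, no region of all 4 lists.

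The open ends were dense in every cell type. In the first part ESC had 141 sites (2.16 times its autosomal density, 95% interval 1.81 to 2.54), EpiSC 143 (2.48 times, 2.09 to 2.92), NSC 171 (2.08 times, 1.78 to 2.42) and MEF 107 (1.69 times, 1.39 to 2.04). In the last part ESC had 141 sites (1.85 times), EpiSC 158 (2.35 times), NSC 168 (1.75 times) and MEF 127 (1.72 times). NSC sites covered 24.2% of the bases of the first part and 24.5% of the last, compared with 10.3% of the autosomes. ESC sites covered 18.5% and 15.4% (autosomes 9.36%), EpiSC sites 19.6% and 19.7% (7.19%), and MEF sites 12.3% and 14.8% (6.85%). Neighbouring sites were closer together at these ends in each list. The median gap was 910 bp in the first and 1008 bp in the last part for ESC (whole list 1338 bp), 708.5 and 716 bp for EpiSC (2343 bp), 525.5 and 544 bp for NSC (1490 bp), and 1300 and 883 bp for MEF (2549 bp).

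Some bins of the last part ranked among the most populated of the genome. The bin from 23660001 to 23680000 held 59 sites, of which 8 were ESC, 16 EpiSC, 20 NSC and 15 MEF, and only 3 of 120739 autosomal bins held that many or more, this bin included. The NSC sites there covered 10704 bases and the ESC sites 2764, so the covered share of this bin differed widely between lists. The bin from 23600001 to 23620000 held 54 sites and was the richest of Hist1 for ESC, with 17 ESC, 13 EpiSC, 13 NSC and 11 MEF sites. The bin from 23520001 to 23540000 held 52, with 12, 13, 15 and 12. At the far end, the opening bin of the interval (21800001 to 21820000) held 10 ESC, 16 EpiSC, 17 NSC and 8 MEF sites. Bins with at least 50 sites numbered 6 of 96 in Hist1 and 120 of 120739 over the autosomes.

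The sparse middle part was not equally sparse in all lists. EpiSC had 92 sites there, at 0.503 times its autosomal density (95% interval 0.406 to 0.617). MEF had 46 (0.229 times, 0.168 to 0.306), ESC 37 (0.179 times, 0.126 to 0.246) and NSC 35 (0.134 times, 0.0940 to 0.187). The interval of EpiSC did not overlap those of the other lists, although without replicates this difference has no test and the read depth of the lists is unknown. EpiSC also left the fewest bins of the middle part empty, 20 of 57, against 31 in ESC and 34 in NSC and in MEF. Of the 92 EpiSC sites, 63 (68.5%, 58.0 to 77.8) were in no other list, beside 30.7% of the whole list. The share was 71.4% in NSC (53.7 to 85.4, whole list 47.8%) and 67.4% in MEF (52.0 to 80.5, whole list 43.6%). In ESC it was 37.8% (22.5 to 55.2), an interval that includes the 40.0% of its whole list. The part was chosen for holding no region of all lists, which bears on these shares. The bin with the most EpiSC sites of the middle part, from 23240001 to 23260000, chosen after its values were seen, held 9 EpiSC sites and 2 of each other list. ESC sites of the middle part were shared mainly with EpiSC: 51.4% of the 37 overlapped an EpiSC site (34.4 to 68.1, whole list 40.1%). A MEF site was overlapped by 10.8% (whole list 24.4%) and an NSC site by 2.70% (whole list 33.1%). Sites of the middle part had a median width of 276 bp in ESC (whole list 373 bp), 289.5 bp in EpiSC (338 bp) and 290 bp in NSC (333 bp). In MEF the median was 313 bp, near the 323 bp of its whole list. Sites covered 0.896% (NSC), 0.968% (ESC), 1.33% (MEF) and 2.57% (EpiSC) of the bases of the middle part.

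Sharing across cell types was then compared with that of the whole lists. Of the 319 ESC sites of Hist1, 93 (29.2%, exact Clopper-Pearson 95% interval 24.2 to 34.5) overlapped a site of all 3 other lists by at least 1 bp, beside 9.78% of all ESC sites. For EpiSC it was 101 of 393 (25.7%, 21.4 to 30.3; all sites 11.1%), for NSC 94 of 374 (25.1%, 20.8 to 29.9; all sites 7.85%) and for MEF 99 of 280 (35.4%, 29.8 to 41.3; all sites 10.1%). Sites of 1 list alone were correspondingly fewer in 3 lists, at 24.5% of ESC sites (19.8 to 29.5; all sites 40.0%), 29.4% of NSC sites (24.8 to 34.3; 47.8%) and 21.8% of MEF sites (17.1 to 27.1; 43.6%). In EpiSC the share was 27.0% (22.6 to 31.7), whose interval includes the 30.7% of the whole list. Among sites 250 to 350 bp wide, the share in all lists was 30.4% for ESC (19.9 to 42.7; all such sites 6.15%) and 19.4% for MEF (11.1 to 30.5; 5.81%). For EpiSC at this width it was 10.3% (4.53 to 19.2) and for NSC 5.97% (1.65 to 14.6), and these intervals include the 5.70% and 3.31% of all such sites, so that the excess was not detectable there.

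**Figure D2:**
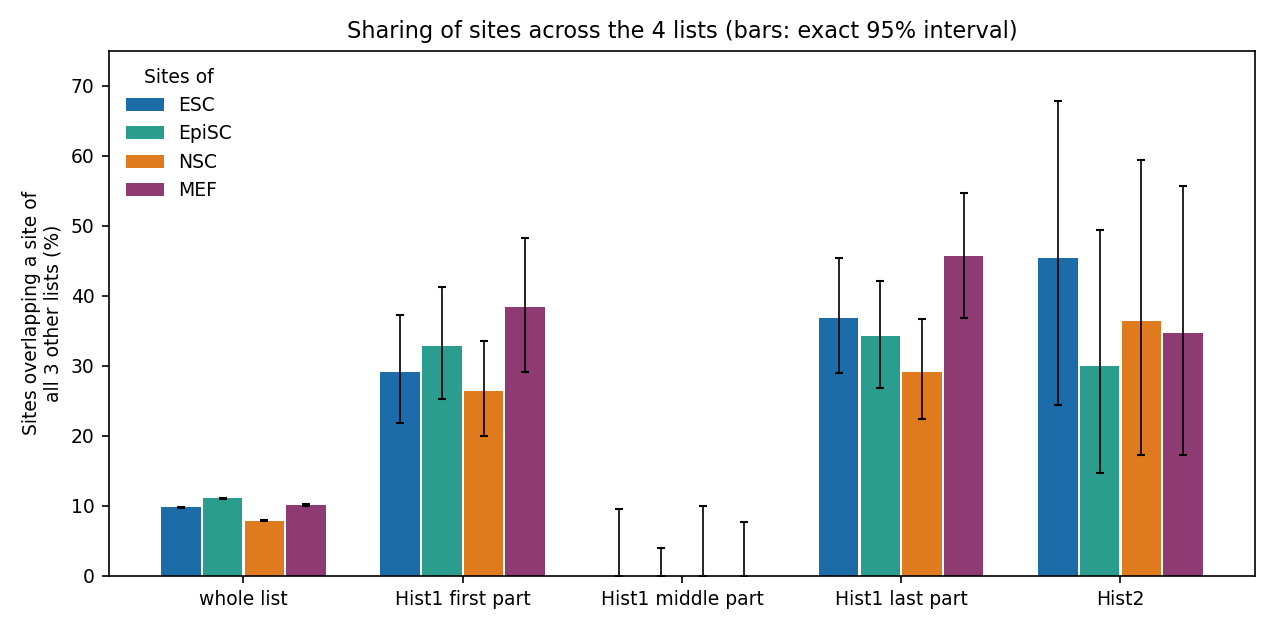
Percent of the sites of each list that overlap a site of all 3 other lists, in the whole list, in the 3 parts of the Hist1 interval and in the Hist2 interval, with exact 95% intervals. The parts of Hist1 were cut by the absence of regions of all lists, which sets the middle part at 0 and favours high shares in the open ends, so these are a description; Hist1 as a whole has 25.1% to 35.4%, and whole lists have 7.85% to 11.1%.

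The excess was also present among densely occupied bins, a comparison chosen after the data were seen. Of the 96 bins of Hist1, 23 held at least 25 sites of the 4 lists together, as did 22548 autosomal bins (18.7%). The cut is a lower limit and did not match density: 6 of the 23 held at least 50 sites, beside 120 of the 22548. In the 23 bins of Hist1, 34.7% of ESC sites (28.7 to 41.2) were in all lists, compared with 15.1% in the other autosomal bins at this cut. The values were 36.9% and 18.3% for EpiSC, 31.0% and 14.7% for NSC, and 46.6% and 20.6% for MEF.

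By pairs, overlap in Hist1 was above that of the whole lists for 11 of the 12 ordered pairs by more than their intervals. The exception was EpiSC sites in ESC, at 48.9% (43.8 to 53.9) and 45.0% in the whole list. NSC sites overlapped EpiSC in 53.7% of cases (48.5 to 58.9; whole list 26.7%) and MEF sites overlapped EpiSC in 58.2% (52.2 to 64.1; 26.6%). MEF sites were found most often in NSC, at 66.8% (60.9 to 72.3; 40.1%), and ESC sites most often in EpiSC, at 61.8% (56.2 to 67.1; 40.1%). EpiSC sites of Hist1 overlapped NSC in 56.2% of cases (51.2 to 61.2), more often than ESC (43.8 to 53.9), though these intervals overlap. In the whole list the order was the reverse, with 38.9% overlapping NSC. In the first part 72.7% of EpiSC sites overlapped an NSC site and 60.8% an ESC site.

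The number of sites per bin rose and fell together in all pairs of lists. Over the 96 bins of Hist1 Spearman's rho lay between 0.732 (ESC and MEF) and 0.833 (EpiSC and MEF), whereas over autosomal bins it went from 0.291 (ESC and MEF) to 0.722 (ESC and EpiSC). The contrast of open ends and middle part contributes to these values. Over the 39 bins of the open ends alone rho was 0.595 for ESC and MEF, 0.703 for ESC and NSC, and between 0.745 and 0.797 for the other pairs. These are descriptions across bins, which share the lists and are not replicates.

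Merged across lists, the Hist1 sites formed 642 regions, of which 92 (14.3%, 95% interval 11.7 to 17.3) were open in all 4 lists, beside 4.05% of all merged regions. Regions of a single list made up 55.3% in Hist1 and 66.1% overall. The 92 regions lay in 45 cases in the first part and in 47 in the last. Their median width was 1473 bp, near the 1376 bp of all such regions. In total 31425 bases of Hist1 were covered in every list, which was 1.64% of the interval, compared with 0.614% of the autosomes. In the last part the share was 4.29%. Among the other combinations, 110 regions were found in NSC alone (17.13% of Hist1 regions, beside 23.41% of all merged regions). EpiSC alone had 106 (16.51%, beside 10.47%), ESC alone 78 (12.15%, beside 15.60%) and MEF alone 61 (9.50%, beside 16.59%). Only the share of EpiSC thus stood above that of all merged regions, and no intervals were computed for these shares. Of the 106 EpiSC regions 63 lay in the middle part, whereas 85 of the 110 NSC regions lay in the open ends (49 in the first and 36 in the last).

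The 5 widest regions of all 4 lists in Hist1 lay mostly in the last part. The widest ran from 23492139 to 23496890 (4752 bp), and 2.41% of all regions of 4 lists were as wide. It held 2 ESC sites (2664 bases), 2 EpiSC sites (2590), 4 NSC sites (3943) and 3 MEF sites (3843), including the widest single site of Hist1 in ESC (2280 bp), EpiSC (2373 bp) and MEF (2169 bp). The others were 23645093 to 23648639 (3547 bp), 23654051 to 23657491 (3441 bp), 23616265 to 23619635 (3371 bp) and, in the first part, 21870460 to 21873540 (3081 bp). In the region of 3441 bp the NSC sites covered 3255 bases, while ESC covered 719 and MEF 676. It was thus recorded as open in all lists on the basis of short sites in 2 of them. The widest NSC site, from 23522552 to 23525537 (2986 bp), lay where ESC had sites of 516, 381 and 688 bp, EpiSC sites of 1285 and 1043 bp, and MEF sites of 1226, 373 and 620 bp. What was 1 site in NSC was thus several shorter sites in the other lists.

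The scores that the authors gave to sites were high in Hist1 relative to each list. The median score was 5.09 in ESC (whole list 3.45), 3.84 in EpiSC (2.90), 5.24 in NSC (3.94) and 3.86 in MEF (3.31), and the scale of the scores is not described, so each belongs to its own list. Of the ESC sites 24.5% (19.8 to 29.5) reached the 90th percentile of their list, beside 10.0% by definition, and the shares were 22.4% in EpiSC, 24.3% in NSC and 19.3% in MEF. Wide sites were not in excess in every list: at the 90th percentile of widths the share ran from 5.96% in ESC through 11.5% in EpiSC and 12.9% in MEF to 16.3% in NSC, beside 10.0% in each whole list. In the middle part scores were ordinary, with median percentiles of 54.6 in EpiSC, 51.7 in MEF, 41.9 in ESC and 41.3 in NSC.

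Sites found in all lists scored highest in each list. The median percentile of ESC sites of Hist1 within their list went from 43.0 for those of no other list to 90.9 for those of all lists, compared with 83.5 for ESC sites of all lists genome-wide. The rise was not steady in EpiSC and MEF, where sites of 1 other list (47.5 and 46.3) stood below those of no other list (55.6 and 50.2). In EpiSC the sites of all lists stood at 88.5, in NSC at 88.4 and in MEF at 74.6, compared with 74.1, 67.3 and 57.3 for sites of all lists genome-wide. NSC sites of 2 other lists differed most from the whole list, at 72.7 in Hist1 and 45.8 overall.

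**Figure D3:**
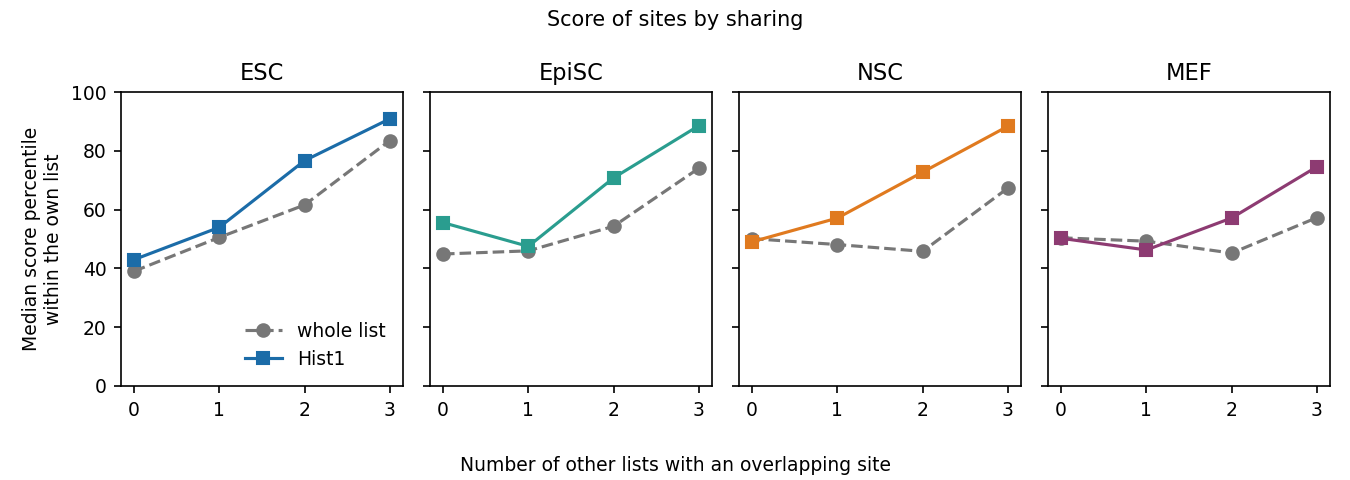
Median percentile of the authors' score within the own list (y axis, 0 to 100) against the number of other lists with an overlapping site, for Hist1 sites (solid, squares) and the whole list (dashed, circles). For sites of all lists the Hist1 value lies above the whole-list value in each panel, for example 88.4 against 67.3 in NSC.

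Most of the Hist1 sites named by score were common to the lists. The share in all lists among equally high-scoring sites genome-wide was not computed, and sites of all lists scored highest in each whole list too. The highest-scoring Hist1 site of ESC, at 22134765 to 22135125 (score 26.2), was matched by the highest of EpiSC, at 22134789 to 22135123 (23.2), and by the second of NSC, at 22134766 to 22135121 (29.5). In their lists 0.007%, 0.025% and 0.016% of sites scored as high. MEF had a site at 22134788 to 22135129 with a score of 13.7, reached by 0.361% of its list. The 4 sites at this place thus had nearly the same limits. The genomic control, which would show whether bare DNA is also enriched there, was not analysed here.

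The remaining Hist1 sites named by score lay in all 4 lists in all but 2 cases. NSC had its highest Hist1 score, 31.4, at 23625519 to 23625808, where ESC (12.8), EpiSC (7.96) and MEF (5.95) also had sites. MEF had its highest, 17.1, at 23662875 to 23663331, with sites of ESC (14.5), EpiSC (9.97) and NSC (24.1). The next of MEF, at 23635137 to 23635647 (15.1), and the next of EpiSC, at 23542036 to 23542513 (17.0) and 22126567 to 22127060 (14.8), lay in all lists, as did those of ESC at 23714256 to 23714595 (19.2) and 23524388 to 23525075 (18.7). The exceptions were an NSC site at 21843351 to 21843734 (27.0), found in no other list, and a MEF site at 21874148 to 21874503 (14.6), shared with EpiSC and NSC and missing from the ESC list.

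The Hist2 interval, although only 55 kb long, was densely occupied, with 49.0% of its bases in a site of at least 1 list, compared with 23.9% of the autosomes. ESC had 22 sites (2.20 times its autosomal density, 95% interval 1.38 to 3.33), EpiSC 30 (3.40 times, 2.29 to 4.85), NSC 22 (1.75 times, 1.10 to 2.65) and MEF 26 (2.69 times, 1.76 to 3.94). They covered 19.2%, 30.5%, 30.8% and 24.3% of the interval. With equal numbers of sites, NSC thus covered more of it than ESC, and its sites were wider, with a median of 599.5 bp against 395.5 bp. In the opening 10 kb (96030001 to 96040000) EpiSC had 7 sites, MEF 4, ESC 3 and NSC 1. In the next 20 kb the numbers were 12, 12, 9 and 8, and from 96060001 to 96080000 they were 7, 8, 8 and 10.

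**Figure D4:**
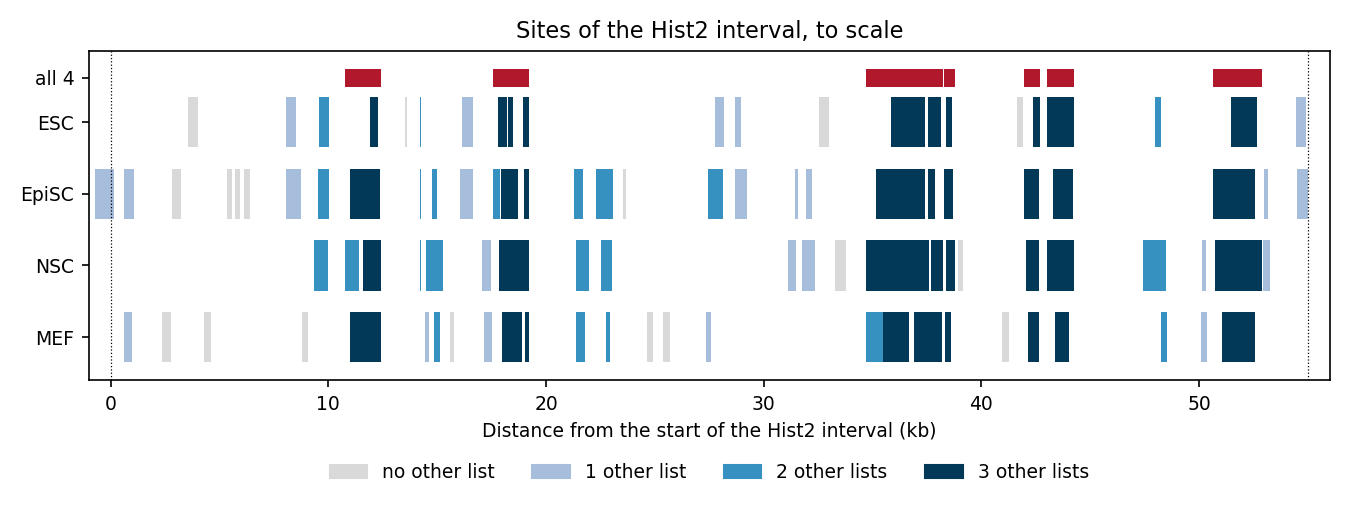
Sites of the 4 lists along the Hist2 interval, drawn to scale against the distance in kb from its start and shaded by the number of other lists with an overlapping site; bars on top mark the 7 regions of all 4 lists. The regions of all lists begin at 10.7 kb, and the widest (3558 bp) begins at 34.7 kb.

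Of the 100 Hist2 sites 36 were in all 3 other lists: 10 of 22 in ESC (45.5%, 24.4 to 67.8), 9 of 30 in EpiSC (95% interval 14.7% to 49.4%), 8 of 22 in NSC (36.4%, 17.2 to 59.3) and 9 of 26 in MEF (34.6%, 17.2 to 55.7). All of these intervals lie above the shares of the whole lists given for Hist1. Sharing above the whole lists was also found in the 200 kb before Hist2, at 22.1% for ESC, 25.7% for EpiSC, 29.0% for NSC and 34.7% for MEF. There 13.8% of merged regions were in all lists. In the 200 kb after Hist2 the shares were 11.1% for ESC and 8.82% for EpiSC, near the 9.78% and 11.1% of their whole lists. They were 35.7% of 14 NSC sites and 18.2% of 22 MEF sites, and 6.32% of merged regions were in all lists. The Hist2 sites in all lists formed 7 of 43 merged regions (16.3%, 6.81 to 30.7). The widest, from 96064700 to 96068257 (3558 bp), was nearly filled in NSC (3433 bases) and MEF (3229) and less so in EpiSC (2592) and ESC (2157). It held the widest Hist2 site of ESC (1587 bp), EpiSC (2270 bp) and NSC (2878 bp). Next came 96080639 to 96082879 (2241 bp), 96047543 to 96049241 (1699 bp), 96040749 to 96042415 (1667 bp) and 96073012 to 96074235 (1224 bp). The highest-scoring site differed between lists. For ESC it was 96058663 to 96058958 (12.7, also in EpiSC), for EpiSC 96067560 to 96067881 (9.06, in all lists), for NSC 96051359 to 96051992 (15.5, also in EpiSC and MEF) and for MEF 96073371 to 96074033 (10.6, in all lists). In Hist2 4823 bases were covered in every list, or 8.77% of the interval.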

How the data were processed

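FAIRE-seq libraries of 4 cell types and a sheared genomic DNA control made 10 samples in 5 groups of 2. Each cell type had 1 deposited list of sites, recorded with its replicate 2, and the other 6 samples were not analysed here. Each list gives chromosome, start, end and a score, with a second score for display that was not analysed. The score is the authors' own. For its scale, the aligner, the use of the control and the pooling of replicates, nothing was stated in the labels or headers read here. The build is mm9 and CASAVA 1.8 was used, per the submitters' processing notes. Read depth is unknown.

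Sites overlapping an interval by at least 1 bp were members. The members and gene lists were chosen with earlier results of these data known. Sharing was an overlap of at least 1 bp, and overlapping sites of the lists were merged into regions. Densities are sites per length of the interval, relative to those of the same list over the 19 autosomes from first to last site. Sites of the parts of Hist1, of the 200 kb on either side and of 20-kb bins were counted by midpoint. Intervals are exact Clopper-Pearson or Poisson 95% intervals of counting error, and no p-value was computed. Scores were compared within a list. Named were the 3 highest-scoring and the widest Hist1 sites of each list, the highest-scoring and widest Hist2 site, the 5 widest regions of all lists per interval, and the bins with most sites. Python 3.11.15, pandas 2.3.3, numpy 2.4.6 and scipy 1.17.1 were used. The overlap code was tested on simulated sites and checked against bedtools 2.31.1. Alternatives were a 50% overlap, the 50% of sites that scored highest, equal list lengths, joined neighbours, a fixed width, midpoint placement, limits wider by 200 kb, other bins and, chosen after the data were seen, dense bins only. A histone H4 protein sequence, planned at first, and a gene annotation of the sites were not used here.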

Additional observations from a re-analysis of the deposited data

How the results depend on the processing

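No paired analysis was possible because only 1 list stood for each cell type, and for the same reason no replicate could be left out. Other settings moved the reported values by less than their interval or, for counts, by at most 1.5 times in 68 cases, and further in 27. Requiring 50% of the shorter site to overlap gave a share in all lists of 28.9% for MEF. With the 50% of each list that scored highest, the share was 24.1% for ESC, Hist1 held 251 EpiSC, 234 NSC and 162 MEF sites, and 54 regions were in all lists. Densities there were 1.24 (ESC), 1.63 (EpiSC), 1.07 (NSC) and 0.955 (MEF) times autosomal. In Hist2 it left 14 MEF sites and an ESC density of 3.60, and 31.3% of Hist1 bins held every list, beside 29.7% of autosomal bins, so that Hist1 was no longer below the autosomes. Lists of equal length gave NSC a Hist1 density of 0.985. At widths of 250 to 350 bp the shares were 10.3% (EpiSC), 5.97% (NSC) and 19.4% (MEF). Limits wider by 200 kb gave NSC 0.970 in Hist1. In Hist2 they gave 171 ESC, 167 EpiSC, 105 NSC and 97 MEF sites, with densities of 2.29 (EpiSC), 1.01 (NSC) and 1.21 (MEF). Bins of 10 kb and 50 kb held every list in 30.7% and 66.7% of cases (all autosomal bins 35.7% and 76.4%). Dense bins alone, added after the data were seen, gave 34.7% (ESC), 36.9% (EpiSC), 31.0% (NSC) and 46.6% (MEF). Smaller lists give fewer sites, wider limits more sites and a stricter overlap fewer shared sites, by construction. Smaller bins likewise hold every list less often, and larger bins more often. The cause of the other shifts was not tested. Without counts of reads, no limit of detection can be given for places with no site.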

Other observations

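The 200 kb on either side of the intervals were counted in the same way. Past the end of Hist1, regions of all lists were absent from the bins next to the limit and returned further on. The bin from 23720001 to 23740000 held 0 ESC, 1 EpiSC, 3 NSC and 2 MEF sites, and that from 23740001 to 23760000 held 3, 2, 9 and 1. Neither held a region of all lists, whereas the bin from 23760001 to 23780000 held 3. From 23720001 to 23920000 ESC had 44 sites (1.21 times its autosomal density, 95% interval 0.880 to 1.63), EpiSC 68 (2.12 times, 1.65 to 2.69), NSC 89 (1.95 times, 1.56 to 2.40) and MEF 51 (1.45 times, 1.08 to 1.91). Of 123 merged regions there, 21 (17.1%, 10.9 to 24.9) were in all lists. The bin from 23840001 to 23860000 held 10 ESC, 16 EpiSC, 17 NSC and 10 MEF sites and 6 regions of all lists, and that from 23820001 to 23840000 held 7, 10, 17 and 11. Whether histone genes continue past the limit in mm9 was not determined.

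Before Hist1, from 21600001 to 21800000, none of 69 merged regions was in all lists. NSC had 51 sites (1.12 times autosomal, 0.831 to 1.47), EpiSC and MEF 18 each (0.561 and 0.512 times) and ESC 4 (0.110 times, 0.0300 to 0.282). The bin just before the limit held 10 NSC sites, 3 EpiSC sites, 1 ESC site and 1 MEF site, and the opening bin of the cluster 17, 16, 10 and 8.

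The sides of Hist2 differed from each other. In the 200 kb before it, all lists were above their autosomal density, at 2.18 times (EpiSC), 2.12 times (ESC), 1.51 times (NSC) and 1.39 times (MEF). In the 200 kb after it, ESC (72 sites, 1.98 times, 1.55 to 2.50) and EpiSC (68 sites, 2.12 times, 1.65 to 2.69) kept that level, whereas NSC had 14 sites (0.306 times, 0.167 to 0.514) and MEF 22 (0.625 times, 0.392 to 0.947). Without replicate lists these differences have no test.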
